A study of Homo sapiens with 9 samples.

Results

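The transcripts followed here were chosen as ones that begin in, or contain, sequence of the endogenous retrovirus family HERVH. They are ESRG, LINC01108, SCGB3A2, ERVH-1, ABHD12B, HHLA1, LINC00458 and LINC-ROR. They were taken by gene name from the deposited expression table, in which 8 of 60829 rows carry these names. All 8 had enough reads to be tested.

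HERVH is a primate-specific family of endogenous retroviruses, many copies of which are transcribed in human pluripotent stem cells. The long terminal repeat of the active copies, LTR7, carries binding sites for pluripotency factors such as POU5F1 (OCT4), NANOG and KLF4 and acts as promoter or enhancer. Transcripts started in LTR7 may end inside the element, as long noncoding RNAs, or be spliced into a neighbouring gene, which gives a protein-coding locus a second, stem cell start.

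The cells were H1, an established embryonic stem cell line of human origin, grown in mTeSR medium on vitronectin. The chrX-KO clone, whose genotype label is knock out, carries a knockout on chromosome X of an HERVH locus that the study names HERVHlin. The chrX-ctrl clone, labelled WT, is its control, and all 9 libraries of both clones carry the treatment label differentiated cells. Ribosomal RNA was removed from total RNA, and stranded libraries were made from 5 passages of the knockout clone and 4 of the control clone. Each genotype is 1 clone whose successive passages stand in for replicates. Every p-value below therefore sets the difference between 2 single clones against the scatter of their passages, not against how independently made clones differ. Values are the authors' normalized counts, which are reads per gene divided by 1 size factor per library, and libraries are called knockout 1 to 5 and control 1 to 4.

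The libraries held 19838682 to 31192630 reads, and protein-coding genes took 26.3% to 50.8% of them. The authors' table marks 3 rows as knocked out. Of these gene.human_00015544 averaged 57.5 ± 18.4 normalized counts in the knockout clone (SD, n = 5) and 2700 ± 1198 in the control clone (SD, n = 4), and gene.human_00001528 averaged 116 ± 35.9 in the knockout clone and 698 ± 299 in the control clone. The other marked row averaged 1452 ± 307 in the knockout clone and 2403 ± 841 in the control clone, with overlapping libraries, and did not pass (limma adjusted p = 0.436). Among the pluripotent stem cell markers (POU5F1, NANOG, SOX2, LIN28A, DNMT3B, TDGF1 and ZFP42), 0 of 7 passed the limma test in either direction, 1 of 7 at an unadjusted p under 0.05, and 0 of 7 passed in edgeR and DESeq2. Their log2 fold changes were negative for 7 of 7, against 49.0% of all rows tested, with a median of -0.39. Their summed level was 23960 to 37971 normalized counts in the knockout clone and 28377 to 66980 in the control clone. Of 15 markers of endoderm, mesoderm, neural ectoderm, stroma and trophoblast, 13 had too few reads to test. The sum of all 15 was 368 to 623 normalized counts in the knockout clone and 509 to 1036 in the control clone, most of it from COL1A1. SOX17 and FOXA2, which define endoderm, had 0 reads in every knockout library and at most 1 in any control library. AFP, the other endoderm marker, had 14 to 159 reads per library. It averaged 32.6 normalized counts in the knockout clone and 67.3 in the control clone (limma adjusted p = 0.773). Apart from AFP and COL1A1, which were detected in both clones, the marker levels of both clones are thus at odds with the treatment label.

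Positions below are from GENCODE 29 on GRCh38. ESRG (embryonic stem cell related gene), a noncoding RNA of pluripotent cells, lies at chr3:54632122-54639857 on the minus strand, within the bounds of CACNA2D3, a gene of the other strand. ERVH-1, annotated as a noncoding RNA and named for an HERVH provirus, lies at chr4:23723262-23733579 on the minus strand. LINC00458 lies at chr13:54115783-54132866, LINC-ROR, a noncoding RNA known for promoting reprogramming to pluripotency, at chr18:57054558-57072119, and LINC01108 at chr6:14280127-14285454, all on the minus strand. The other 3 are protein-coding genes. SCGB3A2 encodes a secretoglobin, a small secreted protein of the airways, at chr5:147870682-147882191 on the plus strand. ABHD12B encodes a protein with an alpha/beta hydrolase domain at chr14:50872160-50904970 on the plus strand. HHLA1 takes its name, HERV-H LTR-associating 1, from the repeat.

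The transcript models showed which members share sequence. Models of 6 members aligned with one another on the same strand over at least 100 bases at 80% identity or more, in 14 of the 28 possible pairs. LINC01108 and SCGB3A2 aligned to no other member, so HERVH sequence in either was not shown here. At these limits LINC01108 also aligned to no model of any other gene. In 5 of the 14 aligned pairs the partner was ESRG, and each of those alignments included bases from the beginning of ESRG. LINC00458 matched ESRG bases 1 to 251 at 95.6% identity, LINC-ROR matched bases 38 to 252 at 95.3%, and ABHD12B matched bases 77 to 253 at 96.0%. For ABHD12B the match was the first 177 bases of a short noncoding model, ABHD12B-206. ERVH-1 matched ESRG bases 94 to 255 at 93.9%, from base 270 of its own model, and HHLA1 matched bases 2 to 110 at 96.3%, from base 764 of its model. Other pairs also shared stretches outside these: ERVH-1 bases 124 to 269 aligned to ABHD12B at 97.9% identity and bases 429 to 639 to HHLA1 at 92.9%, and ABHD12B and HHLA1 shared 410 bases at 93.4%.

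**Figure D1:**
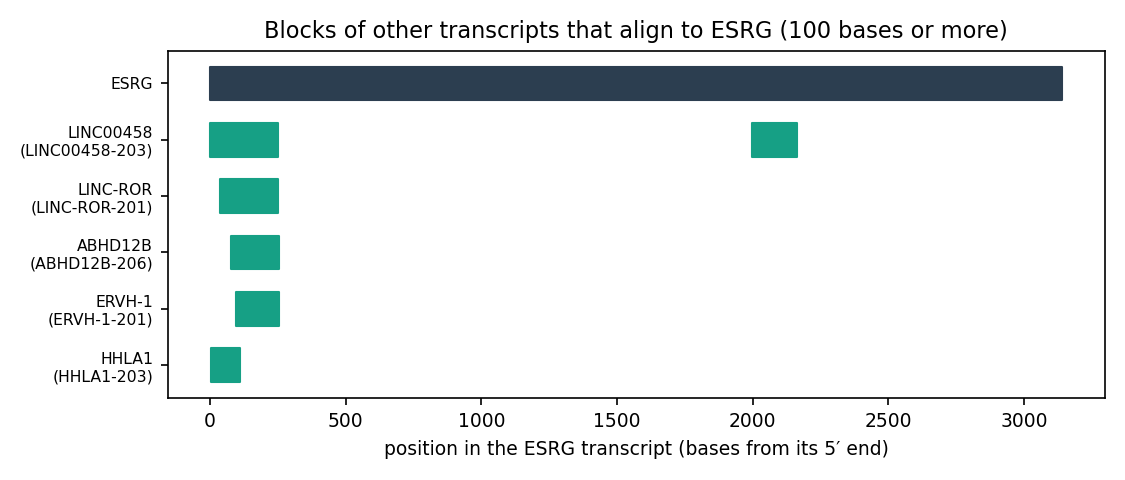
Stretches of the ESRG transcript model that other members match. The horizontal axis is the position in the ESRG model in bases, from its start, and each bar is an aligned block of the named member. The blocks of all 5 matching members overlap within the first 255 bases, and LINC00458 has a further block between bases 1998 and 2164.

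For SCGB3A2 and LINC01108, which aligned to no other member, the window from 250 bases before to 50 bases after the start in the RefSeq table (GRCh38.p14) is printed, because these were the members that changed most or had the fewest reads. Capitals mark the letters TATAAA, which were found on either strand in 11.5% of 35116 such windows.
SCGB3A2: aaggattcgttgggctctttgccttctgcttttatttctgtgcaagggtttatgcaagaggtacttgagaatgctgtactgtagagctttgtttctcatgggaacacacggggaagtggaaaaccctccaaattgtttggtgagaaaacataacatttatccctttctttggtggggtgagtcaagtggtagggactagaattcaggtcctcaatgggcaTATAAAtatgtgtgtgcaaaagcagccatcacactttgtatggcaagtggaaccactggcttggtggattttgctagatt
LINC01108: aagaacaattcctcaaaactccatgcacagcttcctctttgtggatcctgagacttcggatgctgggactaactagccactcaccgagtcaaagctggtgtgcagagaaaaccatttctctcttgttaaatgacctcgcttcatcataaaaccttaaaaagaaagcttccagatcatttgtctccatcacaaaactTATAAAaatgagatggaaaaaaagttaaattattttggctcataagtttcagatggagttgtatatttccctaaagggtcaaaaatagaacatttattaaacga
They come from chr5:147878461-147878760 (plus) and chr6:14285405-14285704 (minus), and 3 of the 8 members had such a window, ABHD12B being the third. The SCGB3A2 window lies inside the GENCODE locus, whose first model starts upstream at position 147870682, so it is not the most upstream start. Which start the cells used was not measured. The octamer ATGCAAAT was in 1.77% of all windows and the KLF-like GGGTGTGG in 3.28%, searched on both strands, and neither was in these 3 windows. The ABHD12B window also lacked TATAAA.

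All 8 transcripts had a lower mean in the knockout clone, and for 3 of them, SCGB3A2, ERVH-1 and LINC01108, the difference passed limma's test over 27777 rows at an adjusted p of 0.05. Over all rows 0.425% were called lower by this test. All 8 log2 fold changes were negative, against 49.0% of all rows, and all 8 had an unadjusted p under 0.05 with the knockout lower, against 5.05%. The median log2 fold change of the 8 was -1.58, beside 0.01 over all rows tested, 0.19 over lncRNA rows and -0.09 over protein-coding rows. In 5 members every knockout library lay below every control library, which held for 2.6% of all rows. In bulk RNA, fewer cells that express a transcript and less of it per cell cannot be told apart.

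**Figure D2:**
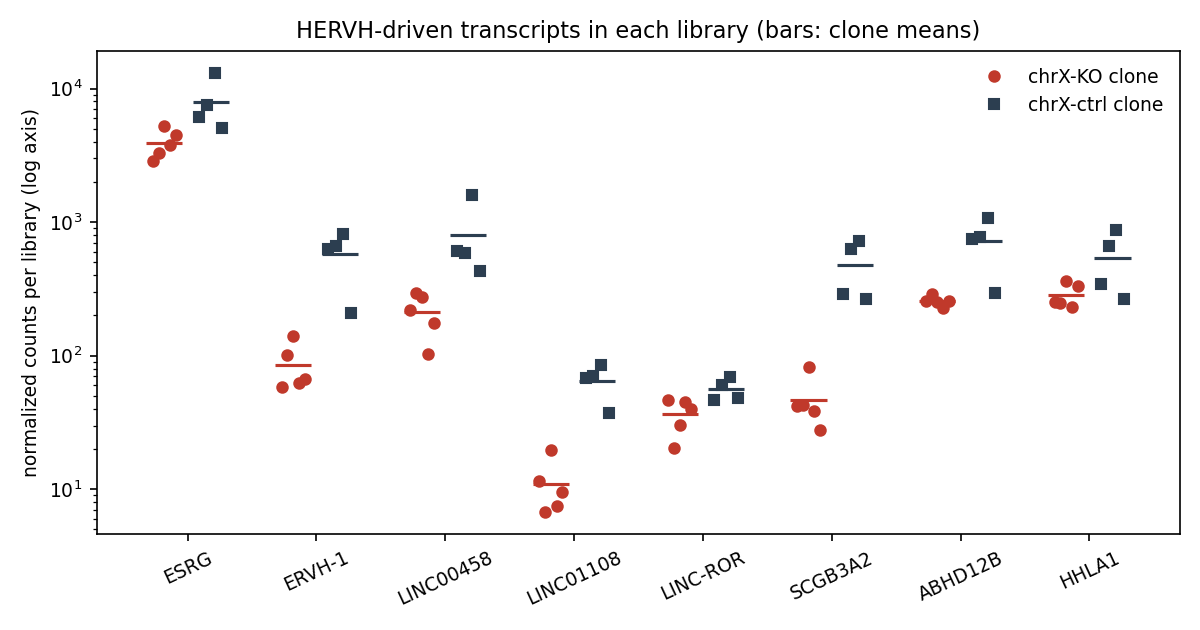
Normalized counts (log scale) of the 8 transcripts in each library, with the knockout clone (circles) left of the control clone (squares) for each transcript, 1 symbol per library and a bar at the clone mean. SCGB3A2, ERVH-1, LINC01108, ABHD12B and LINC00458 show no overlap between the clones, whereas ESRG, LINC-ROR and HHLA1 do.

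**Figure D3:**
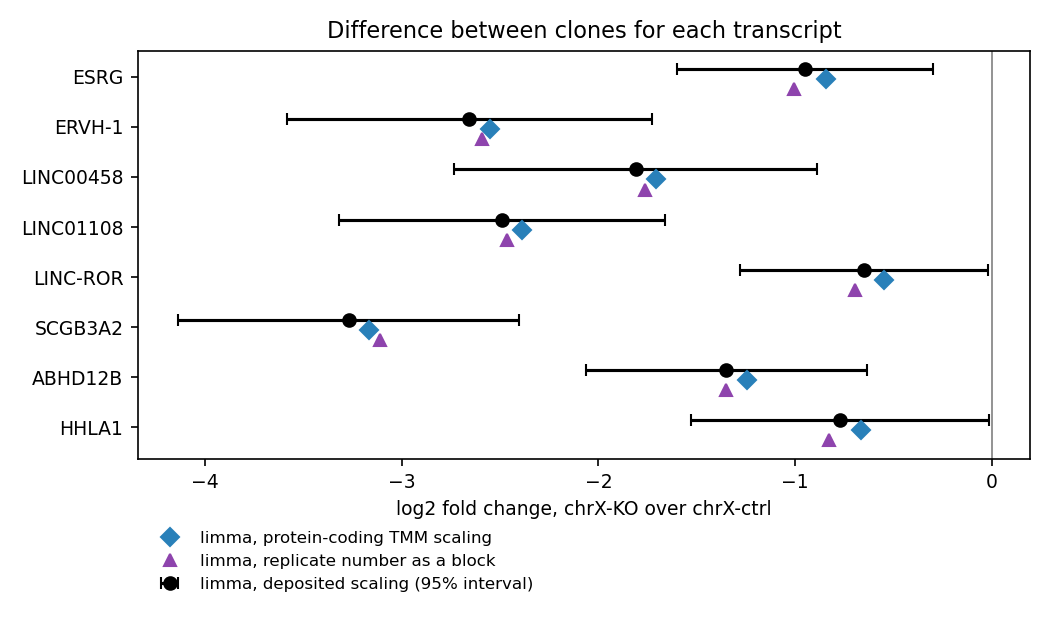
Log2 fold change of each transcript, knockout clone over control clone, from limma with its 95% confidence interval (circles), and the estimates with protein-coding scaling (diamonds) and with the replicate number as a block (triangles). The circles run between -3.27 for SCGB3A2 and -0.65 for LINC-ROR, and all 8 lie below 0.

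Among the noncoding RNAs, ESRG was the most abundant. It had 2866, 3278, 5248, 3786 and 4515 normalized counts in knockout 1 to 5, against 6100, 7470, 13137 and 5072 in control 1 to 4. Knockout 3 lay above control 4, so the clones overlapped by that pair of libraries. The log2 fold change was -0.95 (SE 0.29, 95% interval -1.60 to -0.30), and it did not pass (limma adjusted p = 0.301). DESeq2 on the recovered reads put ESRG past the threshold (log2 fold change -0.98, adjusted p = 0.0401), and the authors' deposited table gave an adjusted p of 0.0528.

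ERVH-1 fell in the knockout clone. Its normalized counts were 58.4, 100.3, 140.9, 62.0 and 67.1 in knockout 1 to 5, against 626.9, 657.2, 809.5 and 210.4 in control 1 to 4. Control 4 stood well below the other controls and still above every knockout library. Limma gave a log2 fold change of -2.66 (SE 0.41, adjusted p = 0.0246). The call held without control 4 (limma adjusted p = 0.00282) or knockout 3 (0.0254) and was lost without any other single library, at adjusted p between 0.0564 (without knockout 2) and 0.102 (without control 2).

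LINC00458, a noncoding RNA of pluripotent cells also called lncRNA-ES3, had 221.3, 293.1, 273.6, 103.1 and 174.7 normalized counts in knockout 1 to 5, against 611.0, 584.2, 1587 and 433.5 in control 1 to 4. The clones did not overlap, and control 3 stood far above the other controls. The log2 fold change of -1.81 (SE 0.41) did not pass in limma (adjusted p = 0.131) and passed in DESeq2 (adjusted p = 0.000552).

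LINC01108, also called lncRNA-ES1, fell in the knockout clone but rested on few reads, 6 to 93 per library. It had 11.5, 6.76, 19.8, 7.47 and 9.58 normalized counts in knockout 1 to 5, against 68.0, 69.9, 84.8 and 37.0 in control 1 to 4. The lowest control lay above the highest knockout library. In limma this was -2.49 on the log2 scale (SE 0.37, adjusted p = 0.0196). Leaving out control 1, 2 or 3 raised limma's adjusted p to 0.0728, 0.0911 and 0.0701, leaving out knockout 2, 4 or 5 to 0.0510, 0.0598 and 0.0627, and quantile normalization to 0.0614.

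LINC-ROR changed least. It had 46.9, 20.3, 30.3, 44.8 and 39.8 normalized counts in knockout 1 to 5, against 46.8, 60.6, 69.3 and 47.9 in control 1 to 4. Knockout 1 reached the level of control 1, and the clones overlapped by that pair. This gave -0.65 on the log2 scale (SE 0.28, 95% interval -1.28 to -0.02, limma adjusted p = 0.57).

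Of the protein-coding members, SCGB3A2 differed most. It had 42.1, 42.8, 82.7, 38.9 and 28.01 normalized counts in knockout 1 to 5, against 287.9, 629.2, 724.7 and 266.4 in control 1 to 4. Even the highest knockout library had less than the lowest control. SCGB3A2 was 9.65-fold lower in the knockout clone (log2 fold change -3.27, SE 0.39, 95% interval -4.14 to -2.41, limma adjusted p = 0.00515). The call held with each of the 9 libraries left out in turn, at limma adjusted p between 0.00562 and 0.0261.

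ABHD12B was even across the knockout passages and uneven across the control passages. It had 258.6, 289.8, 250.4, 226.5 and 258.0 normalized counts in knockout 1 to 5, against 753.3, 770.6, 1066 and 294.4 in control 1 to 4. Control 4 came close to the knockout level, just above knockout 2. The log2 fold change of -1.35 (SE 0.32) did not pass in limma (adjusted p = 0.149), whereas without control 4 it was -1.73 and passed (limma adjusted p = 0.00238). DESeq2 called it with all libraries (adjusted p = 0.000351).

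HHLA1 lies at chr8:132061486-132111159 on the minus strand. It had 252.9, 246.9, 363.3, 230.9 and 330.2 normalized counts in knockout 1 to 5, against 345.3, 663.4, 867.8 and 263.7 in control 1 to 4. The clones overlapped, since knockout 3 lay above control 1 and control 4. Its log2 fold change was -0.77 (SE 0.34, 95% interval -1.53 to -0.01, limma adjusted p = 0.57).

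The authors' deposited table called 5 of the 8 lower at an adjusted p under 0.05 (LINC01108, SCGB3A2, ERVH-1, ABHD12B and LINC00458), where it called 1.53% of its rows with an adjusted p lower. DESeq2 run on the recovered reads called 6 of 8, adding ESRG, where it called 1.62% of rows lower, and edgeR called the same 3 as limma against 0.432% of rows. When libraries of equal number were paired by a replicate block, 1 of 8, SCGB3A2, passed in limma (log2 fold change -3.11, adjusted p = 0.0263) where 0.104% of rows were called lower. In that paired fit ERVH-1 had an adjusted p of 0.0558 and LINC01108 of 0.0808.

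Levels of different genes were compared per kilobase of the longest transcript model. In the knockout clone ESRG averaged 1254 ± 305 normalized counts per kilobase, followed by LINC00458 at 201 ± 72.6, ERVH-1 at 134 ± 54.8, ABHD12B at 89.6 ± 7.91, SCGB3A2 at 69.8 ± 31.0 and HHLA1 at 69.4 ± 14.2 (SD, n = 5). LINC-ROR at 13.99 ± 4.25 and LINC01108 at 3.50 ± 1.66 came last. The 5 transcripts from LINC00458 to HHLA1 each overlapped their neighbour in this order, while ESRG, LINC-ROR and LINC01108 stood apart from theirs. In the control clone ESRG averaged 2530 ± 1146 normalized counts per kilobase, ERVH-1 901 ± 401, LINC00458 758 ± 498, SCGB3A2 710 ± 349, ABHD12B 252 ± 111 and HHLA1 130 ± 68.4 (SD, n = 4). LINC-ROR at 21.6 ± 4.14 and LINC01108 at 20.6 ± 6.36 were last there too, and overlapped each other. ESRG and the noncoding pair at the low end kept their ranks in both clones, and SCGB3A2 stood below ABHD12B in the knockout clone and above it in the control clone. That last change of rank rests on the length used, since models of ABHD12B run from 317 to 2863 bases. Undivided by length, SCGB3A2 averaged less than ABHD12B in the knockout clone (46.9 against 257 normalized counts) and in the control clone (477 against 721). Which models the cells used was not measured.

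Within the control clone most members had their highest and lowest values in the same passages. Control 3 was the highest control for 8 of 8 members and control 4 the lowest for 7 of 8, the exception being LINC-ROR, which was lowest in control 1. In the knockout clone the highest value fell in knockout 3 for 5 of 8, knockout 2 for 2 and knockout 1 for 1, and the lowest values were spread over knockout 1, 2, 4 and 5. On the log2 scale the median member deviated from its clone mean by -0.02, -0.11, 0.45, -0.23 and -0.04 in knockout 1 to 5, and by -0.22, 0.20, 0.72 and -0.72 in control 1 to 4. Highly expressed protein-coding rows as a whole deviated by -0.11, 0.09, 0.32, -0.22 and -0.10 in knockout 1 to 5 and by -0.12, -0.05, 0.59 and -0.36 in control 1 to 4. Both sets were thus highest in knockout 3 and control 3 and lowest in knockout 4 and control 4. With scaling to protein-coding rows, which moved the median of all rows by 0.10, the same 3 members were called against 0.461% of rows, and ESRG no longer overlapped between the clones (log2 fold change -0.84, limma adjusted p = 0.187).

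**Figure D4:**
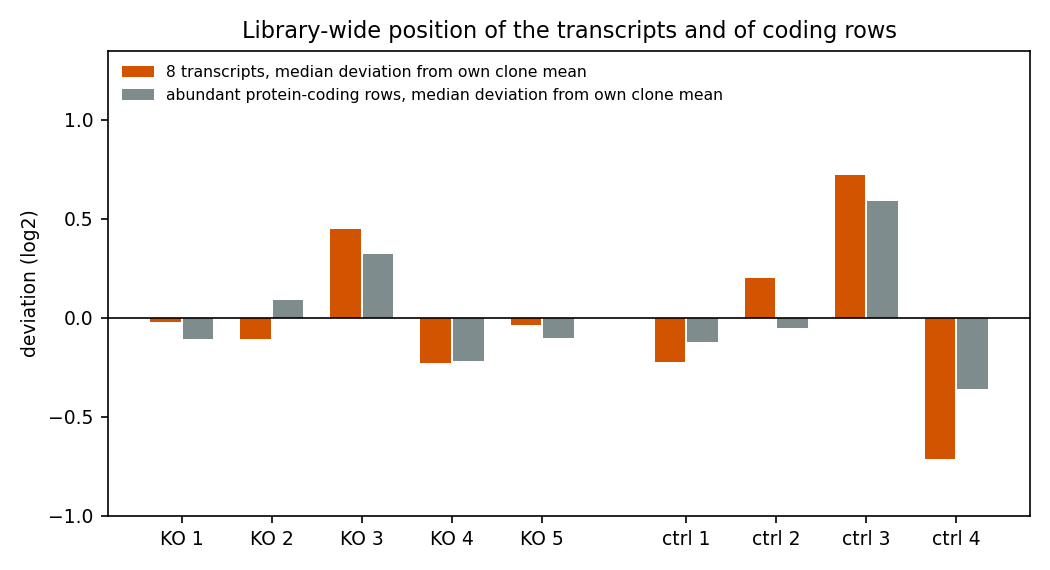
Deviation of each library from its clone mean (log2), as bars for the median of the 8 members and for the median of highly expressed protein-coding rows, with knockout libraries left and control libraries right. Control 3 is high and control 4 low for both sets, by 0.72 and -0.72 for the median member.

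The spread between passages differed between members. In the knockout clone the highest library was 1.28 times the lowest for ABHD12B and 2.95 times for SCGB3A2, the extremes of the 8. In the control clone the ratio was 1.48 for LINC-ROR and 3.85 for ERVH-1.

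Genes that overlap a member were read for comparison, since no source used here says whether reads were counted by strand. RP11-380P13.1, on the strand opposite ERVH-1, averaged 606 normalized counts in the knockout clone and 1274 in the control clone (log2 fold change -1.05, limma adjusted p = 0.42). CACNA2D3, which contains ESRG, averaged 27.4 normalized counts in the knockout clone and 30.4 in the control clone (log2 fold change -0.20). RP11-168P6.2, opposite LINC00458, averaged 12.7 in the knockout clone and 24.8 in the control clone (log2 fold change -1.40, limma adjusted p = 0.716). PYGL, opposite ABHD12B, averaged 589 and 703 (log2 fold change -0.23, limma adjusted p = 0.844). C5orf46, opposite SCGB3A2, and RP11-240B13.2, on the same strand as HHLA1, had too few reads to test. RP11-240B13.2 had 0 to 2.25 normalized counts in the knockout clone and 2.71 to 13.7 in the control clone, from at most 15 reads.

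The nearest tested gene on each side of each member was then read. Of 16 such neighbours limma called 1 lower, where 0.425% of all rows were called lower, and 0 higher. The log2 fold change was below 0 for 11 of them, against 49.0% of all rows, with a median of -0.26. The one that fell was SPINK5, a serine protease inhibitor gene 143492 bases to the right of SCGB3A2. It had 15.4 ± 5.58 normalized counts in the knockout clone (SD, n = 5) and 105 ± 39.8 in the control clone (SD, n = 4), a log2 fold change of -2.69 (SE 0.39, limma adjusted p = 0.0174). The call was lost without control 1 (limma adjusted p = 0.0610), control 2 (0.0795) or knockout 4 (0.0554), under quantile normalization (0.0568) and with the replicate block (0.101). SPINK1, a related inhibitor 38896 bases to the left of SCGB3A2, averaged 44.8 normalized counts in the knockout clone and 83.6 in the control clone and did not pass (log2 fold change -0.89, limma adjusted p = 0.601). EFR3A, 47844 bases to the left of HHLA1, averaged 329 ± 30.7 normalized counts in the knockout clone and 505 ± 81.1 in the control clone. Its libraries did not overlap between the clones, which held for 2 of the 16 neighbours and 2.6% of all rows. It did not pass in limma (log2 fold change -0.61, adjusted p = 0.160) and passed in DESeq2 (adjusted p = 0.00990), so that DESeq2 called 2 neighbours lower, as did the authors' deposited table.

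Other genes described with an HERVH or LTR7 sequence were read as a group of 7, of which HHLA2 and OC90 had too few reads. By limma 0 of the 5 tested passed, and edgeR and DESeq2 also called 0. By limma 2 had an unadjusted p under 0.05, as did 2397 of 27777 rows in all. All 5 log2 fold changes were negative, against 49.0% of all rows, with a median of -0.84. KLKB1, the gene of plasma prekallikrein, averaged 380 normalized counts in the knockout clone and 884 in the control clone (-1.01 on the log2 scale). CALB1, a calcium-binding protein gene, averaged 556 and RPL39L, a ribosomal protein gene, 474 in the knockout clone, against 957 and 903 in the control clone.

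The regulators known to act on LTR7 did not pass. Among POU5F1, NANOG, SOX2, KLF4, TFCP2L1, EP300, TRIM28 and SETDB1, limma called 0 of 8, 0 had an unadjusted p under 0.05, edgeR and DESeq2 called 0, and the median log2 fold change was -0.37. The log2 fold change was below 0 for 6 of the 8, against 49.0% of all rows. Among the 6 activators, from POU5F1 to EP300 in this list, it was below 0 for 5, with a median of -0.45. For the repressors TRIM28 and SETDB1 it was below 0 for 1 of 2. ZNF534 had too few reads to test. POU5F1 averaged 7899 ± 1424 normalized counts in the knockout clone (SD, n = 5) and 10768 ± 4092 in the control clone (SD, n = 4). The corepressor TRIM28 averaged 9508 ± 1508 in the knockout clone and 13263 ± 6912 in the control clone.

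A set of genes was added after the values were seen, from sequence alone: those with a GENCODE model that aligns to ESRG. There were 54, of which 35 match the first 251 bases of ESRG within the first 100 bases of their own model. Leaving out members, 32 of these had a row and 29 could be tested. Limma called 7 lower and 0 higher, where 0.425% of all rows were called lower. Of the 29 log2 fold changes 27 were negative, against 49.0% of all rows, and the median was -0.97. In 15 genes every knockout library lay below every control library, which held for 2.6% of all rows. CALB1 and RPL39L, described above, are among the 29. Over lncRNA rows limma called 0.433% lower. Of the 17 genes that match ESRG elsewhere, 13 were tested. Limma and edgeR called 0 of them, and the median was -0.48. By limma 6 had an unadjusted p under 0.05, as did 2397 of 27777 rows in all. DESeq2 called 4 lower, where it called 1.62% of all rows lower. In 4 every knockout library lay below every control library, against 2.6% of all rows. How reads were divided between such related copies was not measured.

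The 7 called were RP11-267L5.1, CTC-286N12.1, AC073071.1, LINC02257, RP11-69I8.2, LINC02474 and RP11-297M9.1. RP11-267L5.1 had 316, 244, 163, 13.5 and 26.5 normalized counts in knockout 1 to 5, against 9890, 4277, 4478 and 1691 in control 1 to 4. It thus had the widest gap of the set and also the widest spread within a clone (-5.60 on the log2 scale, SE 0.95, limma adjusted p = 0.0381). It passed without knockout 1 (limma adjusted p = 0.0360) or control 4 (0.0437) and missed the threshold without any other single library, at up to 0.127 without control 2. It also missed in edgeR (adjusted p = 0.0521) and under quantile normalization (limma adjusted p = 0.0561). AC073071.1 averaged 34.1 ± 10.5 normalized counts in the knockout clone (SD, n = 5) and 188 ± 32.0 in the control clone (SD, n = 4), and passed in all 9 fits. RP11-69I8.2 (572 ± 132 in the knockout clone, 1762 ± 58.8 in the control clone) and RP11-297M9.1 (222 ± 35.8 in the knockout clone, 691 ± 115 in the control clone) also passed in all 9. CTC-286N12.1 passed in 3 of the 9 fits, and LINC02257 and LINC02474 in 1 each. With the replicate block RP11-69I8.2 (limma adjusted p = 0.0540), RP11-297M9.1 (0.0544), LINC02257 (0.134) and LINC02474 (0.198) missed the threshold, and RP11-267L5.1, CTC-286N12.1 and AC073071.1 passed. The genes with positive log2 fold changes were LINC00836 at 0.63 and CTD-2306M5.1 at 0.23, and neither passed.

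**Figure D5:**
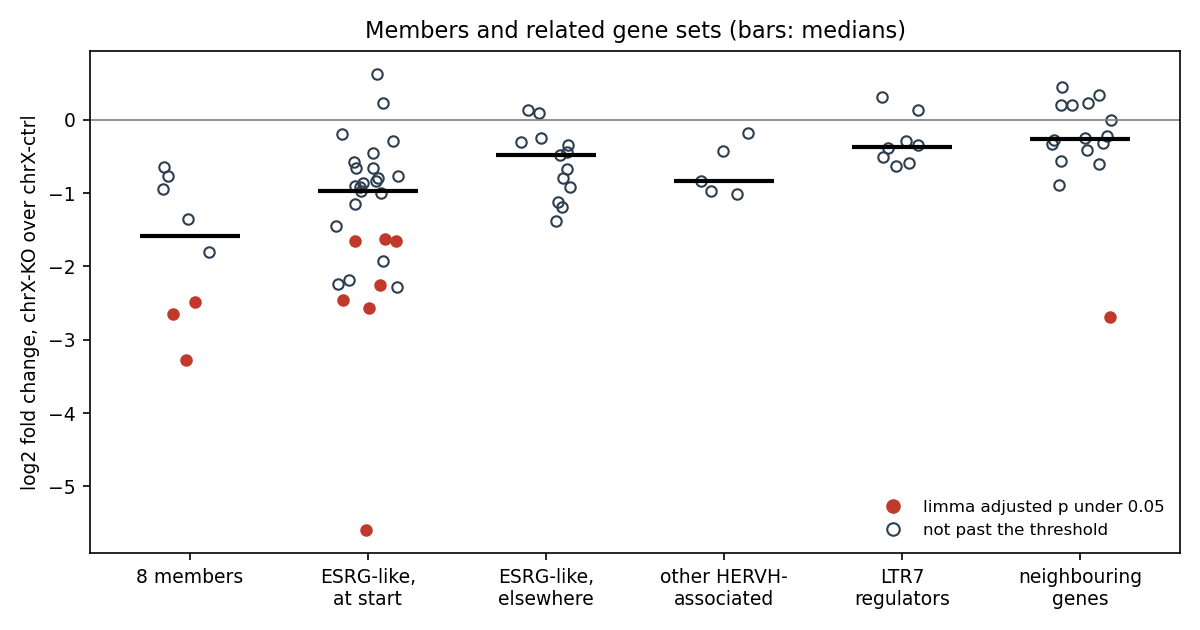
Log2 fold change (knockout clone over control clone) of single genes (circles, filled where limma's adjusted p is under 0.05) in each group, with a bar at the group's median. The medians are -1.58 for the 8 members, -0.97 for the genes that begin like ESRG, -0.48 for those that match ESRG elsewhere, -0.84 for the other HERVH-associated genes, -0.37 for the LTR7 regulators and -0.26 for the neighbours.

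SCGB3A2 has a sequence relation of its own. The first 304 bases of one of its models aligned to GABRP, a GABA receptor subunit gene, over 308 bases at 91.2% identity. The first 307 bases of the same model aligned to CYP1B1-AS1 over 318 bases at 88.7%. Shorter matches were to TSIX (157 bases, from another model), SEMA3E (112 bases) and LINC01950 (106 bases), and the levels of these genes were not read. GABRP had 487, 860, 911, 685 and 1571 normalized counts in knockout 1 to 5, against 3589, 2379, 4362 and 1637 in control 1 to 4. The clones did not overlap, by a margin of 1571 in knockout 5 to 1637 in control 4. The log2 fold change of -1.74 (SE 0.37) did not pass in limma (adjusted p = 0.104). GABRP also missed in edgeR (adjusted p = 0.116) and passed in DESeq2 (log2 fold change -1.69, adjusted p = 0.000615). CYP1B1-AS1 averaged 101 normalized counts in the knockout clone and 109 in the control clone (log2 fold change -0.13, limma adjusted p = 0.883).

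Each member's profile over the 9 libraries was compared with 16227 rows that averaged at least 50 normalized counts, by the root mean square difference of log2 values centred on their own mean. The closest rows with a gene symbol were ERVH-1 (0.52), PKP3 (0.54) and CTC-286N12.1 (0.55) for SCGB3A2, and CTC-286N12.1 (0.41), LINC02257 (0.44) and CRYAB (0.46) for ERVH-1. CTC-286N12.1 and LINC02257 belong to the set that begins like ESRG. LINC01108 was closest to ZNF300 (0.42), ERVH-1 (0.42) and SERPINB9 (0.44), and LINC00458 to SERPINB9 (0.34), LMCD1 (0.36) and MALL (0.36). ABHD12B was closest to INA (0.25), CTD-2162K18.4 (0.25) and FXYD7 (0.26). ESRG was closest to LLPH (0.17), CTA-29F11.1 (0.18) and RNF138 (0.18), and HHLA1 to C16orf91 (0.15), RRS1 (0.15) and FRAT2 (0.18). LINC-ROR was closest to TNS3 (0.19), ADGRG2 (0.21) and RP11-422P24.12 (0.24). The distance is not scaled by how much a profile varies, so its size cannot be compared between more and less changed members.

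Rows with gene.human_ IDs, the naming series of the knocked-out rows, made up 91 of the 16227 rows compared. Among the 20 rows closest to each member they numbered 9 for SCGB3A2, 5 each for LINC01108, ERVH-1 and ABHD12B, 2 for LINC00458, 1 for ESRG and 0 for HHLA1 and LINC-ROR. The series was itself lower in the knockout clone. Of its 99 tested rows without the knockout mark, 95 had negative log2 fold changes, against 49.0% of all rows. Limma called 17 of the 99 lower, against 0.425% of all rows, and their median was -1.30. Between members the smallest difference was 0.25, for ESRG and HHLA1, and the largest 1.45, for SCGB3A2 and LINC-ROR. All rows share the libraries' size factors and the split into clones, so these distances are descriptions.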

How the data were processed

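Total RNA of 9 libraries was measured (5 knockout, 4 control). The submitters' processing notes name fastp, kallisto, DESeq2 and hg38, with no versions or roles. The deposited signal of a gene is the authors' count over the library's size factor (normalized counts). Dividing by each library's smallest nonzero value gave whole reads for 100% of values (tolerance 1e-06). The deposited table also holds the authors' p-value (raw and adjusted), test score and log2 fold change.

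Limma (3.58.1, R 4.3.3), with a trend, was fitted on log2(value + 1), which understates changes of low genes, over the 27777 rows kept by edgeR's filterByExpr (minimum count 10). Clone was the only term, and p-values were adjusted by Benjamini-Hochberg at 0.05. The plan named edgeR for raw counts and limma for normalized values, so limma was used. From the whole reads, edgeR's quasi-likelihood test (4.0.16) called 151 rows and DESeq2 (1.42.0) called 593. Other alternatives were a pseudocount of 0.5 or 5, no filter, TMM, quantile normalization, each library left out, and TMM over protein-coding rows, chosen after seeing the data. Only the limma and edgeR fits, with clone as the only term, were tested on simulated counts. Those counts had the same dispersion in all rows and no shifts between libraries other than size. The DESeq2, replicate block, scaling and alignment steps were not tested in this way.

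Replicate numbers stand under a batch tag in the labels, and equal numbers were therefore taken as pairs. Same-numbered libraries deviated from their clone means with correlations of 0.06, 0.01, 0.28 and 0.36 (replicates 1 to 4), and knockout 5 has no partner.

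Transcript models (GENCODE 29, GRCh38, matched on Ensembl IDs) were aligned with BLAST 2.17.0 at an e-value of 1e-10. The sequence that members share is not reported here. Promoter windows are from RefSeq. The members and lists were chosen with earlier results of these data known. All members were named, as were, of each other list, those that passed or up to 4 of the highest, and the 3 closest profiles per member.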

Additional observations from a re-analysis of the deposited data

Results flagged for a closer look

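In 2 of the 16 groups formed by the 8 transcripts and the 2 clones, 1 library stood apart from the rest of its clone by Dixon's criterion, which chance meets in about 1 of 20 groups. SCGB3A2 had 82.7 normalized counts in knockout 3, a gap to the next library of 0.729 of the group's range. LINC00458 had 1587 normalized counts in control 3, a gap of 0.846 of the range. Without control 3 the log2 fold change of LINC00458 was -1.42, and without knockout 3 that of SCGB3A2 was -3.49. Knockout 3 and control 3 were also the libraries in which highly expressed protein-coding rows lay highest in their clone, and the part of this in the outlying values was not tested.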

How the results depend on the processing

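Limma called 3 of the 8 transcripts, and 1 to 4 with a library left out in turn. It called 150 rows in all (79 to 186 with a library left out), 1 neighbour (0 to 1) and 7 genes that begin like ESRG (3 to 9). With DESeq2 these counts were 6, 593, 2 and 14. With the replicate block, in which knockout 5 adds nothing to the fold change, they were 1, 43, 0 and 3. Quantile normalization called 0 neighbours and 2 of the 8 transcripts. The cause of these shifts was not tested. The median log2 fold change of the 8 lay between -1.89 (without control 4) and -1.27 (without control 3). Of 144 values of single members under an alternative, 124 kept their side of the threshold, 16 lost it and 4 gained it, and none changed sign. The other HERVH-associated genes and the LTR7 regulators had 0 calls under every alternative run. LINC01108, with 6 to 93 reads per library, is the member most limited by depth.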
